A study of Mus musculus with 12 samples.

Results

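Gene expression of multipotent progenitors (MPPs) that lack Erg was compared with that of hematopoietic stem cells (HSCs) that keep 1 working Erg allele, to see which differences between progenitors and stem cells are found when Erg is reduced. The comparison takes 6 of the 12 arrays of the series. The MPP arrays, 3 in number, are the Erg -/- samples, whose floxed exon 11 of Erg, the exon for the DNA-binding domain, was deleted by Mx1-Cre. The HSC arrays, also 3, are the Erg +/- samples, which carry a germline deletion of the same exon made with a deleter Cre. All mice were male and C57Bl/6 after at least 6 generations of crossing, and all cells were sorted from marrow enriched for c-Kit.

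The MPP donors were treated with pIpC, a synthetic RNA duplex. It raises interferon, which switches on the Mx1 promoter of the Cre transgene. They had 5 injections at 2-day intervals, with sorting 2 weeks from the start of treatment. The HSC donors are not labelled as treated with pIpC. Population, Erg allele dose, Mx1-Cre and pIpC therefore differ together and cannot be told apart in this comparison. The other 6 arrays gave the same population difference without reduced Erg: MPPs of Erg fl/fl mice, which had pIpC but no Cre, against HSCs of Erg +/+ mice, again with 3 arrays each. There, population and pIpC cannot be told apart.

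The titles call the Erg +/- HSC samples knock-outs, and the genotype field was followed. The HSC gate was Lineage-, Sca-1+, c-Kit+, CD150+ and CD48-. For the MPPs the sorting field gives CD150-, whereas the source field repeats the HSC gate. Erg itself and the sorting genes Kit, Ly6a, Slamf1 and Cd48 were not analysed here, so neither the genotypes nor the gates were checked on them. For gene lists, measured means that the analysed table holds a probe set with that gene's symbol alone. Among the 14 measured HSC-associated genes, the mean log2 value was 7.26 to 7.48 on the Erg +/- HSC arrays and 5.88 to 5.97 on the Erg -/- MPP arrays. The HSC arrays were higher in every case. Of these genes 5 were called in this same comparison and the list was chosen with earlier results known, so this is a description and not a check of the labels. Whether each array holds a different animal is not stated in the labels, so the p-values cover the variation among these arrays, part of which may be technical.

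HSCs renew themselves and give rise to all blood cells. MPPs arise from them, divide more often and keep the capacity for several lineages with little self-renewal. Many genes switch between the states: HSCs carry a set of adhesion, signalling and stress-response transcripts, and early progenitors with lymphoid potential turn on Flt3, the receptor tyrosine kinase for Flt3 ligand. Erg is a transcription factor of the ETS family, whose members bind DNA at a GGAA core, and it is known for its part in maintaining HSCs.

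Of 9984 genes, 12 were called between Erg -/- MPPs and Erg +/- HSCs at an adjusted p under 0.05, which is 0.12% of those tested. Flt3 was higher in the MPPs (0.01%), and 11 genes were lower (0.11%): Mmrn1, Eng, Tgm2, Hacd4, AW112010, Cracd, Ces2g, Ifitm1, Nupr1, Fxyd5 and Gltp. Their differences were 6.14-fold to 28.6-fold, and on all 12 the arrays of the compared groups did not overlap. Groups that do not overlap were found for 20.1% of all genes, 1464 higher and 546 lower in the MPPs. In sorted populations measured in bulk, fewer cells that hold a transcript and less of it per cell cannot be told apart. The test was limma's moderated test in 1 model over the 12 arrays, with Benjamini-Hochberg adjustment over the 9984 genes.

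These counts carry a limit. In the value table analysed here, over all 18719 probe sets, 18 had a p of 1.86e-08 or less, and the next smallest p was 0.0537, with 0 probe sets between. Between Erg fl/fl MPPs and Erg +/+ HSCs the same ranges were filled, with 146 probe sets from 1e-06 to 0.001, 793 from 0.001 to 0.01 and 2212 from 0.01 to 0.05. The comparisons of the genotypes within HSCs and within MPPs had no such gap either, with 775 and 542 probe sets from 0.01 to 0.05. The cause of the gap was not tested. The number of called genes, the percentages, the counts and medians of gene lists and the share of control differences that were called again therefore describe the rows of this table, and none of them can be read as how many genes differ between these populations. The same rows enter every other comparison, so the control counts, the correlation between the contrasts and the count for their difference also describe only these rows.

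**Figure D1:**
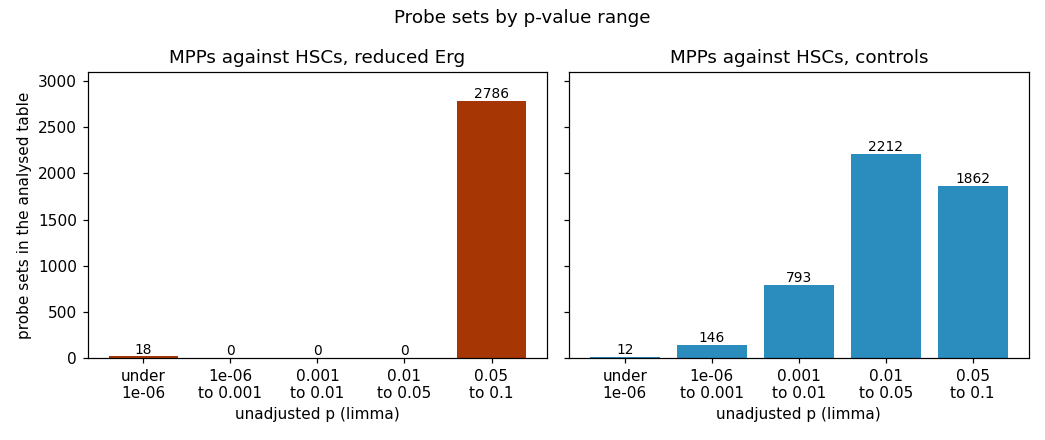
Number of probe sets (y axis) in 5 ranges of unadjusted p (x axis) for MPPs against HSCs with reduced Erg (left) and in controls (right), over the 18719 probe sets. With reduced Erg the 3 ranges from 1e-06 to 0.05 hold 0 probe sets and 18 lie below them, whereas in controls those ranges hold 146, 793 and 2212.

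The moderated standard errors of the 12 called genes were 0.155 to 0.25 on the log2 scale, around the median of 0.223 over all genes. A further 101 genes differed at least 2-fold without a call, with standard errors from 0.425 and a median of 0.599, a contrast that the gap in p fixes by itself. Without adjustment, 179 genes (1.79%) were higher in the MPPs at a p under 0.05 and 205 (2.05%) were lower, the called genes included. Over the 9984 genes the gap ended at a p of 0.0336, and not at 0.0537 as over all probe sets. The uncalled genes counted here thus all lay between 0.0336 and 0.05, and these counts describe the rows as well. The uncalled gene with the smallest p was Slc25a17, a peroxisomal carrier protein, with a log2 difference of -1.26 (SE 0.529, adjusted p = 0.446). Without moderation, and in a fit of these 6 arrays alone, all 12 genes were called again, which the gap also largely fixes.

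Of the called genes with a RefSeq promoter here, Mmrn1, Flt3, Eng and Hacd4 had the largest differences in size. Their promoters are shown because Erg belongs to the family that binds GGAA. Each is the RefSeq window of 300 bases, from 250 before to 50 after the gene's start in GRCm38.p6, written 5′ to 3′ on the gene's strand, with GGAA and its reverse complement TTCC in capitals. Mmrn1 lies on chromosome 6 (chr6:60944067-60944366, plus strand), Eng on chromosome 2 (chr2:32646345-32646644, plus strand), Hacd4 on chromosome 4 (chr4:88438866-88439165, minus strand) and Flt3, the called gene that was higher in MPPs, on chromosome 5 (chr5:147400440-147400739, minus strand).
Mmrn1: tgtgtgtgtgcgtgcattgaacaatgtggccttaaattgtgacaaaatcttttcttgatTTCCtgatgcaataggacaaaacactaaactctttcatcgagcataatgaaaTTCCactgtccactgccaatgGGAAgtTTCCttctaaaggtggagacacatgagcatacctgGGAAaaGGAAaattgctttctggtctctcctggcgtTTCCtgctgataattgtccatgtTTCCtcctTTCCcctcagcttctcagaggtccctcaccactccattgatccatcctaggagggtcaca
Eng: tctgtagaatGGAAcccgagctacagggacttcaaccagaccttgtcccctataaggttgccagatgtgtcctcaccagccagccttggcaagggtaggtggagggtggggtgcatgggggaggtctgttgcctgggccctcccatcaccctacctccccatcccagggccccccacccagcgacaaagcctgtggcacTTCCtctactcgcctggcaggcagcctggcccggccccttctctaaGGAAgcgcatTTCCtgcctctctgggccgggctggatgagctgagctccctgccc
Hacd4: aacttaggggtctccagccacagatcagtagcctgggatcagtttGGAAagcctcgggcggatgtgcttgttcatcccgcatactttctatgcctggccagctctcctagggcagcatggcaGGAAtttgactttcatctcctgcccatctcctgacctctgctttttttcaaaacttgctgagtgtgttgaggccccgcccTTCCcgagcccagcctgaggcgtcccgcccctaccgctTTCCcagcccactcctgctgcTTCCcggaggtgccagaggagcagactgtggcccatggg
Flt3: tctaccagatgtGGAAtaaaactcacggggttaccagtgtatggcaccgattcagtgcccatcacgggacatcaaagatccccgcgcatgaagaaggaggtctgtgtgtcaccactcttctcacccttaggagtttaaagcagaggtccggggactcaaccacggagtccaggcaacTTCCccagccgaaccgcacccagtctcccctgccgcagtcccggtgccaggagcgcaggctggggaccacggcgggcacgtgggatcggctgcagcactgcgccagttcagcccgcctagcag
GGAA or TTCC occurred 9 times in the Mmrn1 window, 5 times in that of Hacd4, 4 times in that of Eng and 2 times in that of Flt3. The RefSeq table used here has a promoter for 11 of the 12 genes, all but Tgm2. GGAA was present in 11 of these 11 windows, against 95.9% of 27025 promoters of the same length, whose median was 3 matches. The longer form AGGAAG, which contains GGAA, was present in 6 of 11 (35.1% of all promoters), CCGGAA, which also contains it, in 0 of 11 (15.2%), and the GATA motif GATAAG in 0 of 11 (7.43%). Both strands were searched. A match describes letters in the window and not a bound site.

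Flt3 and Eng, the receptors among the called genes, differed in opposite directions. Flt3 read 5.45, 4.69 and 4.57 in log2 units on the Erg +/- HSC arrays and 9.29, 9.65 and 9.04 on the Erg -/- MPP arrays. Every MPP array lay above every HSC array, and the HSC values were the more spread of the groups. The difference was 4.42 (SE 0.25, 21.4-fold, adjusted p = 5.42e-07), with a 95% interval of 3.88 to 4.96. In controls it was 2.57, from 6.38, 5.98 and 6.34 in Erg +/+ HSCs to 9.05, 8.70 and 8.65 in Erg fl/fl MPPs. The HSC levels were lower in Erg +/- cells by a mean of -1.33 (adjusted p = 0.119), and the MPP levels differed by 0.52 between genotypes (adjusted p = 0.998), so neither change was called alone.

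Eng encodes endoglin, a co-receptor for ligands of the TGF-beta and BMP families that is found on HSCs and on endothelium. It read 9.74, 9.55 and 9.78 on the Erg +/- HSC arrays and 5.99, 5.81 and 5.76 on the Erg -/- MPP arrays. The groups were far apart and each was tight. Eng was 14.3-fold lower in the MPPs (log2 difference -3.84, SE 0.166, adjusted p = 7.61e-08), and 12.2-fold lower in control MPPs. It was the called gene among 24 measured members of the TGF-beta and BMP pathway, whose median difference was -0.04 beside 0.10 over all genes. The type II receptor Tgfbr2 differed by -0.21 and the signal transducer Smad4 by -0.18, neither of them called. Of the 20 measured endothelial and stromal markers Eng was again the called member. The mean of that list was 5.41 to 5.52 on the Erg +/- HSC arrays and 5.40 to 5.58 on the Erg -/- MPP arrays, which overlap, with Eng included. Of the 20 markers 16 had a positive difference and 4 had higher groups that do not overlap. The median was 0.20, and 0.21 over the 19 uncalled members, beside 0.10 over all genes. Pecam1 (-0.13) and Kdr (0.29), defining genes of endothelium, were not called.

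Mmrn1 and Tgm2, whose proteins act wholly or partly outside the cell, were lower in MPPs. Mmrn1 encodes multimerin 1, a large glycoprotein stored in platelets and endothelium and a frequent HSC marker. It read 8.58, 8.82 and 8.55 in Erg +/- HSCs and 3.97, 3.82 and 3.64 in Erg -/- MPPs. This was the largest of the 12 differences, 28.6-fold (log2 difference -4.84, SE 0.203, adjusted p = 7.61e-08), with a 95% interval of -5.28 to -4.40. The control MPPs were also low, at 4.32, 4.44 and 5.05, against 8.81, 8.82 and 9.08 in Erg +/+ HSCs. Mmrn1 was the called gene among 10 measured megakaryocyte and platelet genes, of which 8 had a positive difference. The platelet receptor subunit Itga2b differed by 0.08 and Gp5 by 0.29, and P2rx1, a platelet receptor for ATP, was the other gene with a negative difference (-0.66).

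Tgm2 encodes tissue transglutaminase, which cross-links proteins. It read 8.83, 8.98 and 9.15 in Erg +/- HSCs and 5.85, 5.39 and 5.54 in Erg -/- MPPs. The difference of -3.39 (SE 0.168, 10.5-fold, adjusted p = 2.66e-07) was close in size to that of -3.37 in controls. Of the 12 genes it had the population difference that depended least on genotype: the contrasts differed by -0.02 (95% interval -0.53 to 0.50).

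Ifitm1 and AW112010 were the called genes whose transcripts are known to be induced by interferon or in inflammation. Ifitm1 encodes an interferon-induced transmembrane protein that stem cells also express at rest. Its values were 12.30, 12.14 and 12.28 in Erg +/- HSCs and 9.31, 9.27 and 9.63 in Erg -/- MPPs. It was 7.14-fold lower in the MPPs (log2 difference -2.84, SE 0.155, adjusted p = 4.57e-07), against 2.12-fold in controls. A second Ifitm1 probe set gave -3.56 (adjusted p = 3.56e-06 over all probe sets). AW112010, a transcript induced in inflammation, read 9.96, 9.56 and 9.81 in Erg +/- HSCs and 6.61, 6.39 and 6.33 in Erg -/- MPPs. It was 10.1-fold lower (log2 difference -3.33, SE 0.183, adjusted p = 4.57e-07), against 3.03-fold in controls. For both genes the Erg fl/fl MPPs lay between the groups, at 11.17, 11.04 and 10.98 for Ifitm1 and at 8.59, 8.54 and 8.07 for AW112010.

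Ifitm1 was the called gene among 21 measured interferon-response genes, of which 13 had a negative difference, with a median of -0.25 beside 0.10 over all genes. The antiviral genes Oas1a (-0.96), Ifit3 (-0.75) and Rsad2 (-0.78) were lower without a call, and Ifi27l2a (1.06) was higher without a call. The mean of the list was 7.20 to 7.44 on the Erg +/- HSC arrays and 6.91 to 7.09 on the Erg -/- MPP arrays. It was at a like level, 7.06 to 7.07, in the Erg fl/fl MPPs, which also had pIpC. In Erg +/+ HSCs the mean of the list was 7.39 on each array. In controls Oas1a (-1.30), Ifit3 (-1.35) and Rsad2 (-1.10) were also lower in the MPPs and Ifi27l2a (0.18) was higher, none of them called. Among 12 antigen presentation genes 0 were called, 6 were positive and 6 negative.

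Hacd4, Gltp and Ces2g encode an enzyme of fatty acid synthesis, a lipid carrier and an esterase, and belong to no common list tested here. Hacd4 encodes a dehydratase of very long chain fatty acid synthesis. Its values were 9.44, 9.26 and 9.38 in Erg +/- HSCs and 5.58, 6.03 and 6.40 in Erg -/- MPPs, whose spread (SD 0.408, n = 3) was the widest of the 12 in that group. The difference was -3.35 (SE 0.204, 10.2-fold, adjusted p = 1.09e-06), close to -3.19 in controls. Gltp encodes a glycolipid transfer protein and read 9.47, 9.65 and 9.93 in Erg +/- HSCs and 7.09, 6.93 and 7.17 in Erg -/- MPPs. The groups were well apart, and the difference was -2.62 (SE 0.168, 6.14-fold, adjusted p = 1.45e-06), the smallest of the 12. Ces2g, a carboxylesterase, read 8.68, 8.64 and 8.79 in Erg +/- HSCs and 5.98, 5.53 and 5.87 in Erg -/- MPPs. It was 7.51-fold lower in the MPPs (log2 difference -2.91, SE 0.178, adjusted p = 1.09e-06). Both reduced-Erg groups were above their controls for Ces2g, by 1.07 in HSCs (adjusted p = 0.0666) and by 0.71 in MPPs (adjusted p = 0.468), without a call in either.

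Ces2g was the called gene of 25 measured erythroid genes, whose median was 0.17. The mean of the erythroid list was 6.19 to 6.55 on the Erg +/- HSC arrays and 6.06 to 6.42 on the Erg -/- MPP arrays, which overlap. The 24 uncalled members ran from -1.05 to 0.55, and of all 25 members 13 were positive and 12 negative. Klf1 (-0.10) and Slc4a1 (0.23), defining erythroid genes, were among the uncalled. Among 14 glycolysis and hypoxia genes 0 were called, with a median of -0.28 and -0.30 in controls. Among 46 oxidative phosphorylation genes 0 were called, with a median of 0.11.

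Fxyd5, Nupr1 and Cracd were the remaining called genes. Fxyd5 encodes dysadherin, which modulates the sodium pump and cell adhesion. It read 11.70, 11.62 and 11.81 in Erg +/- HSCs and 9.06, 8.90 and 9.11 in Erg -/- MPPs, a difference of -2.68 (SE 0.166, 6.43-fold, adjusted p = 1.1e-06). Control MPPs were intermediate, at 10.47, 10.23 and 10.04. Nupr1, a small nuclear protein induced by stress, read 9.55, 9.89 and 9.74 in Erg +/- HSCs and 7.14, 6.86 and 6.71 in Erg -/- MPPs. The difference of -2.82 (SE 0.177, 7.04-fold, adjusted p = 1.25e-06) was larger than that of -1.66 in controls, and the Erg +/+ HSCs, at 8.25, 8.69 and 8.58, were below every Erg +/- HSC array.

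Cracd encodes a protein that inhibits actin capping. Its values were 7.62, 7.85 and 7.83 in Erg +/- HSCs and 4.74, 4.71 and 4.89 in Erg -/- MPPs. The difference was -2.99 (SE 0.164, 7.93-fold, adjusted p = 4.57e-07). A second Cracd probe set, at a lower level, gave -0.45 (unadjusted p = 0.0879), so the probe sets of this gene disagree in size. When the probe sets of each gene were averaged, the Cracd difference was -1.72 and the gene was still called here, while its call in controls was lost (adjusted p = 0.0516).

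**Figure D2:**
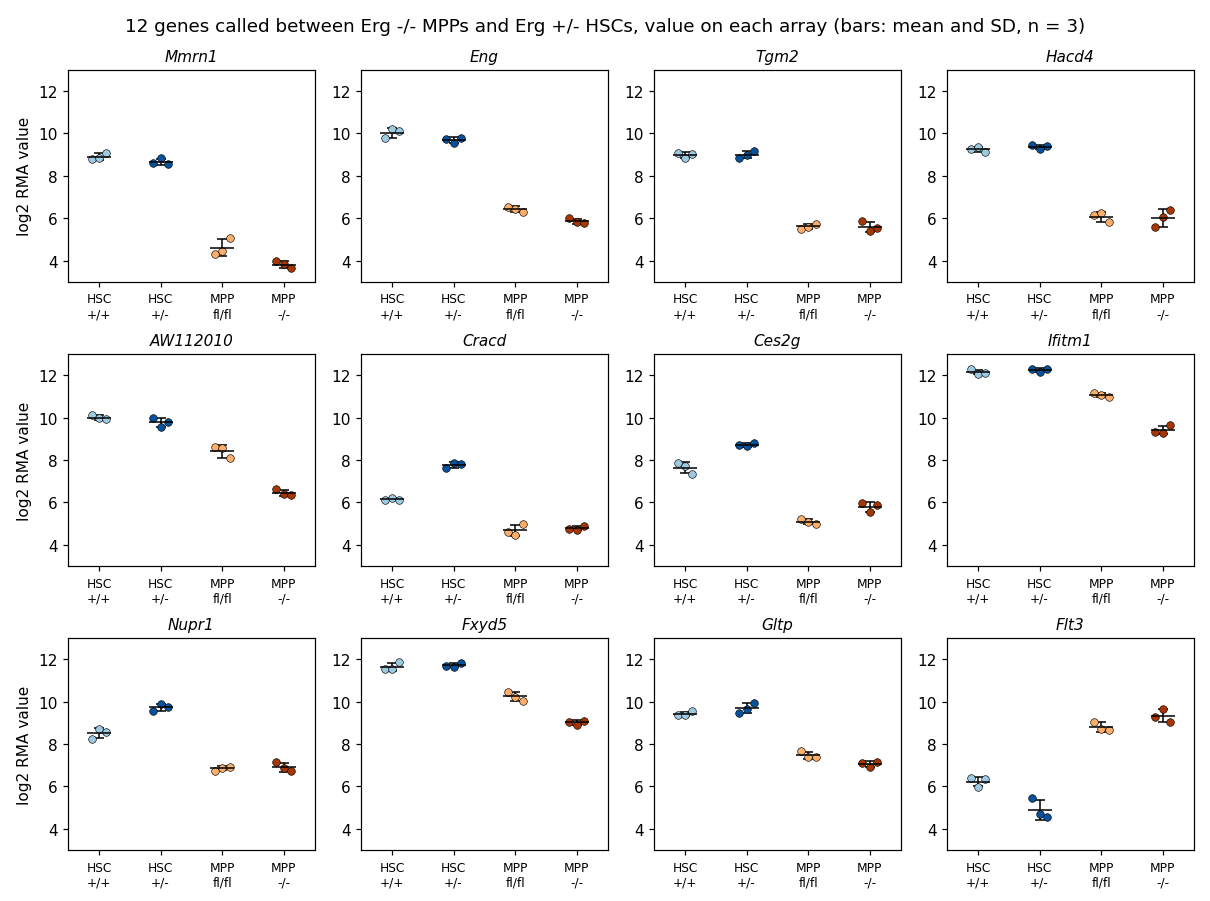
Log2 RMA value (y axis) of the 12 called genes on each of the 12 arrays, by group (x axis), with the mean and SD of 3 arrays. Flt3 rises and the other 11 genes fall from Erg +/- HSCs to Erg -/- MPPs, for Mmrn1 from 8.58 to 8.82 down to 3.64 to 3.97. Ifitm1, AW112010 and Fxyd5 are lower in Erg -/- than in Erg fl/fl MPPs, and Cracd is higher in Erg +/- than in Erg +/+ HSCs.

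The same population difference in controls called 128 genes (1.28% of those tested), 65 higher (0.651%) and 63 lower (0.631%) in MPPs, and 27% of genes had groups that do not overlap. This number was 150, 47 and 48 when replicates 1, 2 and 3 of the Erg fl/fl MPPs were left out in turn, and 96 without replicate 1 of the Erg +/+ HSCs. It was 61 when replicate 1 of each, the lowest-weight array of its population, was left out together. All 12 genes called with reduced Erg were among the 128 and had the same sign, which is 9.38% of the control calls. The contrasts share no array but share the estimate of spread. Across the 9984 genes the differences correlated at r = 0.578, a description, since genes are not independent. Because of the gap in p described above, 9.38% is not a measure of how much of the control difference is found with reduced Erg.

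Each of the 12 differences was larger in size with reduced Erg than in controls. The genes were chosen by the reduced-Erg call, so this order is not independent of the choice. The change in the population difference itself, an interaction term in the same model, was called for Ifitm1 (log2 change -1.75, SE 0.219, adjusted p = 0.0157) and for no other of the 12. AW112010 (-1.73) and Cracd (-1.53) each had an adjusted p of 0.0554. With probe sets averaged per gene the Cracd change was -0.96 (adjusted p = 0.728). Fxyd5 followed with -1.28 (adjusted p = 0.143), Flt3 with 1.85 (adjusted p = 0.173), Nupr1 with -1.16 (adjusted p = 0.318) and Gltp with -0.67 (unadjusted p = 0.0154). For the other 5 genes, Mmrn1 (-0.53), Ces2g (-0.36), Eng (-0.23), Hacd4 (-0.17) and Tgm2 (-0.02), the unadjusted p was 0.0858 or more. The 95% interval for Mmrn1, -1.16 to 0.09, still allows a change of over 2-fold.

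Which population moved differed between the genes. Comparing Erg -/- with Erg fl/fl MPPs, Ifitm1 differed by -1.66 and AW112010 by -1.96 (adjusted p = 0.000442 for each), and Fxyd5 by -1.22 (adjusted p = 0.0124). In HSCs their genotype differences were 0.09, -0.23 and 0.06 and were not called. Cracd showed the reverse order, with a rise of 1.62 from Erg +/+ to Erg +/- HSCs (adjusted p = 0.00303) and a difference of 0.10 between the MPP groups. Its second probe set had means of 4.78 in Erg +/+ HSCs and 5.12 in Erg +/- HSCs, so the size of the rise rests on the first. Nupr1 had 1.22 in HSCs (adjusted p = 0.0507) and 0.05 in MPPs. The MPP comparison also holds Mx1-Cre against no Cre, which cannot be told apart from the loss of Erg there.

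**Figure D3:**
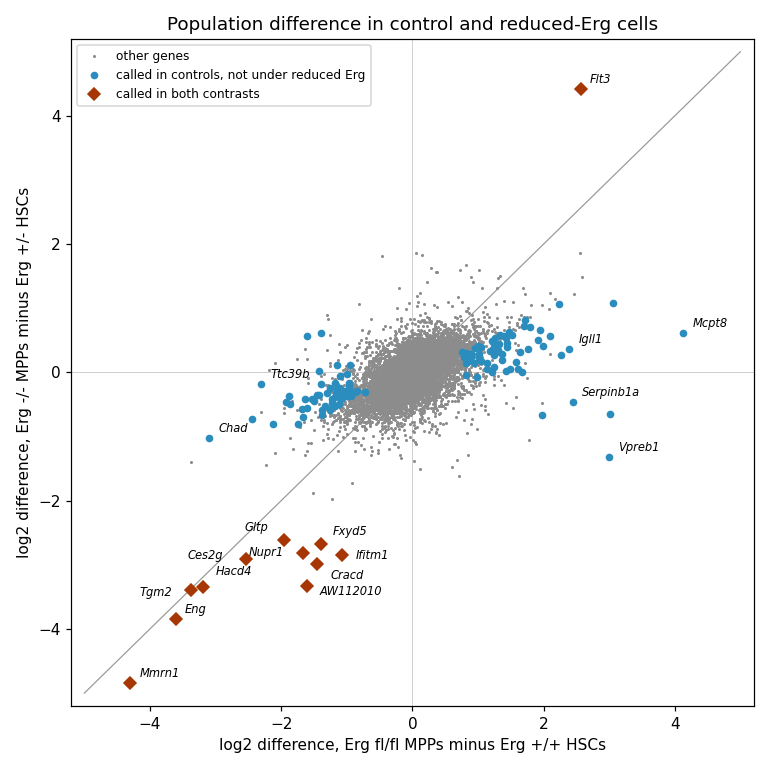
Log2 difference of MPPs minus HSCs for each of 9984 genes, in controls (x axis) and with reduced Erg (y axis), where the grey line marks equal differences. The 12 genes called in both contrasts (diamonds) lie on or beyond the line from -4.84 for Mmrn1 to 4.42 for Flt3, the genes called in controls alone (circles) lie closer to 0 on the y axis, and the empty band between them corresponds to the gap in p.

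In controls alone 116 genes were called, 64 higher and 52 lower in MPPs. With reduced Erg 105 of them kept the sign and 11 had the opposite sign. Their smallest unadjusted p there was 0.0355, a bound set by the gap, since every uncalled gene had 0.0336 or more. The share of matching signs over all genes was not counted, so these numbers describe the rows alone. The named genes that were higher in control MPPs are Mcpt8, Vpreb1, Serpinb1a, Igll1 and Ccl9, and 13 of the 116 genes were not named because of their kind. Mcpt8, a protease of basophils and mast cells, was 4.13 higher in control MPPs and read 4.24, 4.24 and 4.54 in Erg +/- HSCs and 5.26, 4.92 and 4.70 in Erg -/- MPPs. The Erg -/- arrays were above the HSC arrays by 0.62 (SE 0.403, adjusted p = 0.447), without a call. Between the MPP genotypes Mcpt8 was called, with Erg -/- minus Erg fl/fl at -3.54 (adjusted p = 0.0029). The change in the population difference was -3.51 (adjusted p = 0.0877), and it was called (adjusted p = 6.06e-05) without Erg fl/fl MPP replicate 2, whose value of 7.21 was below the 9.16 and 9.13 of the other arrays.

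Igll1 and Vpreb1 together form the surrogate light chain with which pre-B cells build their receptor. Igll1 read 5.95, 5.48 and 5.60 in Erg +/- HSCs and 5.95, 6.05 and 6.11 in Erg -/- MPPs, which is 0.36 higher (SE 0.173, adjusted p = 0.446). In control MPPs it read 7.95, 7.77 and 8.04, and the control difference was 2.39 (adjusted p = 1.13e-05). Its change between the contrasts, -2.03 (SE 0.244, adjusted p = 0.0157), was called, and the Erg -/- MPPs differed from the Erg fl/fl MPPs by -1.88 (adjusted p = 0.000442). Vpreb1 read 6.77, 5.86 and 7.40 in Erg +/- HSCs and 5.35, 5.41 and 5.32 in Erg -/- MPPs, the reverse of the order in controls, where MPPs were 3.00 higher. The change of -4.32 had an adjusted p of 0.143, and Erg +/+ HSC replicate 1, at 8.69 against 6.21 and 6.42, bears on it: without that array the change was -5.12 and was called (adjusted p = 0.00542). Between the MPP genotypes Vpreb1 was called, with Erg -/- minus Erg fl/fl at -4.75 (adjusted p = 0.00326). The control call for Vpreb1 was lost without Erg +/+ HSC replicate 2 or 3 or Erg fl/fl MPP replicate 2 or 3 (adjusted p up to 0.106).

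Serpinb1a, an inhibitor of neutrophil proteases, differed by 2.45 in controls and by -0.46 with reduced Erg. Between the MPP genotypes it was called, with Erg -/- minus Erg fl/fl at -2.53 (adjusted p = 0.0274). Ccl9, a chemokine of myeloid cells, differed by 2.26 in controls and by 0.27 with reduced Erg, where the Erg +/- HSC arrays spread from 5.35 to 7.26. Of the genes lower in control MPPs, Chad, a matrix protein of cartilage, differed by -3.10 in controls and by -1.02 with reduced Erg, with Erg +/- HSC values of 5.31, 7.35 and 6.92. Kazald1, a secreted protein, differed by -2.44 and -0.72, Ttc39b by -2.30 and -0.18, Mrps27, a mitochondrial ribosomal protein, by -2.13 and -0.81, and Prrg2 by -1.92 and -0.46. The control calls for Ccl9, Mrps27 and Prrg2 were each lost when single control arrays were left out (adjusted p up to 0.077, 0.112 and 0.102). None of the changes between the contrasts was called for these 7 genes.

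The difference of the contrasts called 2 genes of 9984 (0.02%), Igll1 and Ifitm1, with 387 at an unadjusted p under 0.05. The count was 0 when any of 7 arrays was left out. These were replicates 2 and 3 of the Erg +/+ HSCs, 1 and 3 of the Erg +/- HSCs, 1 of the control MPPs, and 1 and 2 of the Erg -/- MPPs. Over all arrays left out in turn the log2 change stayed between -2.14 and -1.90 for Igll1 and between -1.87 and -1.68 for Ifitm1, with adjusted p up to 0.0771 and 0.0777. Positive changes were not called. The smallest p among them belonged to Slc29a3, a nucleoside transporter (1.27, adjusted p = 0.134), and to Ttc39b (2.12, adjusted p = 0.143). Flt3, Sparc (2.03), a matrix protein of stromal cells, and Efna1 (2.17), a ligand of Eph receptors, followed. Slc29a3 read 6.71, 6.68 and 6.59 in Erg +/- HSCs and 6.60, 6.81 and 6.91 in Erg -/- MPPs, which overlap, against 7.61, 7.76 and 7.63 in Erg +/+ HSCs. The mean of the endothelial and stromal markers, to which Sparc belongs, was 5.83 to 6.16 in Erg +/+ HSCs and 5.41 to 5.52 in Erg +/- HSCs, and the part of this in the changes of Sparc and Efna1 was not tested.

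Described by gene list, the HSC-associated genes stood lowest and the mitosis genes highest. Of 59 listed HSC-associated genes 14 were measured. Of these, 5 were called, all lower (Mmrn1, Eng, Tgm2, Ifitm1 and Nupr1). The 14 genes had a median of -0.54, and of -0.67 in controls, and 12 had a negative difference. The other listed genes were not tested, here and in every other list, so counts and medians leave them out. Whether the cause of the gap in p also bears on which listed genes have a row was not tested. Over all 9984 genes 0.11% were called lower and 4005 had a negative difference. The 9 uncalled members lay between -0.64 and 0.21. Among them were Nkx2-3 (-0.49), a homeobox factor, Itgav (-0.59), an integrin subunit, and Alcam (0.12), an adhesion molecule. The list was chosen for genes known to be higher in HSCs, and with earlier results of these data known, so its direction is no independent evidence.

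Of 10 measured genes of multipotent and lymphoid-primed progenitors, Flt3 was called and 7 were positive, with a median of 0.07 and of 0.64 in controls. Blnk, an adaptor of B cell signalling, differed by 0.54, and Ebf1, a B-lineage factor, by 0.06 with reduced Erg and by 1.49 in controls (adjusted p = 0.0114). The mean of the list was 5.39 to 5.66 in Erg +/- HSCs, 6.02 to 6.44 in Erg -/- MPPs and 6.41 to 6.69 in Erg fl/fl MPPs. Among 8 B cell markers 0 were called, with a median of 0.11, and their mean was 5.77 to 6.18 in Erg +/- HSCs and 5.94 to 6.20 in Erg -/- MPPs, which overlap. Their mean in Erg fl/fl MPPs was 6.67 to 6.92. Among 7 T and NK cell markers 0 were called, with a median of 0.27 and of 0.87 in controls.

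Among 19 granulocyte-macrophage genes 0 were called and 11 were negative, with a median of -0.31 and of 0.23 in controls. Nkg7, a granule protein of killer and myeloid cells, differed by -1.06 and by 1.78 in controls. Between the MPP genotypes it was called, with Erg -/- minus Erg fl/fl at -3.05 (adjusted p = 0.0274). Cebpa, a myeloid factor, differed by 0.52 and by 1.45 in controls. The mean of the list was 6.22 to 6.65 in Erg +/- HSCs and 6.00 to 6.40 in Erg -/- MPPs, which overlap. Of 6 mast cell and basophil markers 0 were called, with a median of 0.20.

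Of 81 listed mitosis genes 12 were measured: 0 were called and 9 were positive, with a median of 0.48 and of 0.76 in controls. The other listed mitosis genes were not tested, so the absence of calls does not describe them. Plk1, a mitotic kinase, differed by 1.06 (SE 0.466, adjusted p = 0.446), and its Erg +/- HSC arrays ranged from 4.40 to 6.64. Hmgb2, a chromatin protein of dividing cells, has 2 probe sets and differed by 0.57, with -0.11 to 0.81 over the alternative analyses. Cks2, a partner of cyclin-dependent kinases, differed by 0.51 and by 1.91 in controls (adjusted p = 0.00243). Among 25 DNA replication genes 0 were called, with a median of 0.05 and of 0.28 in controls, and among 50 nucleolar ribosome biogenesis genes 0 were called, with a median of -0.04 and of 0.23 in controls. Of 17 quiescence and cell cycle inhibitor genes 0 were called, with a median of 0.22.

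Among 11 measured genes of the ETS family, to which Erg belongs, 0 were called. Their differences ran from -1.22 to 0.42, with a median of 0.17. Elk1 differed by -0.44, Spib by 0.42 and Ets1 by 0.32. Among 26 homeobox and stem cell factor genes 0 were called, with a median of 0.18. Flt3 was the called gene of 22 cytokine receptor and signalling genes, whose median was -0.12. Epor, the erythropoietin receptor, differed by -0.76, and Il1r1, the interleukin-1 receptor, by -0.51 and by 1.05 in controls, neither of them called.

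For the other lists, too, counts and medians describe the rows of the table. Mmrn1 was the called gene of 23 integrin and cell adhesion genes (median 0.06), and Flt3 that of 5 dendritic cell markers. Among 20 Notch and Wnt pathway genes (median 0.04), 17 imprinted genes (0.14), 14 retinoid and xenobiotic metabolism genes (-0.18), 25 apoptosis and p53 target genes (-0.08) and 41 ribosomal protein genes, 19 of them positive and 22 negative, 0 were called.

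**Figure D4:**
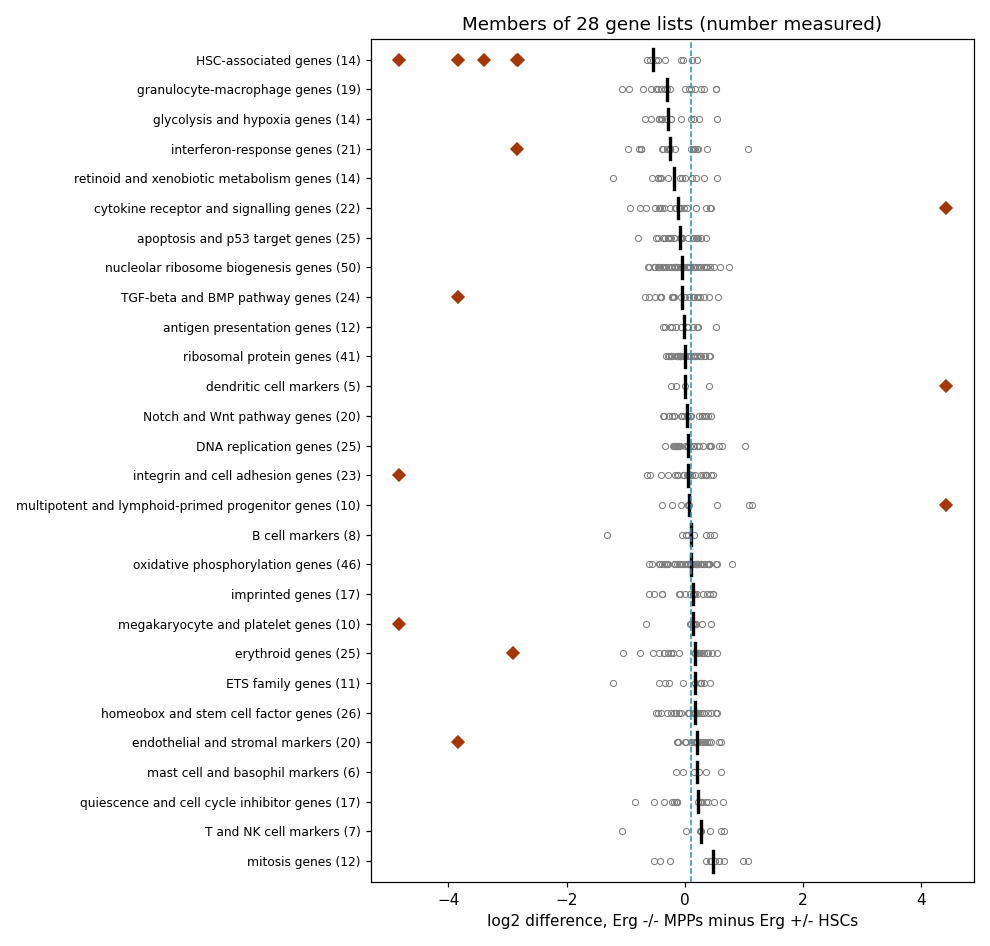
Log2 difference of Erg -/- MPPs minus Erg +/- HSCs (x axis) for the measured members of 28 gene lists (y axis, number measured in parentheses), where diamonds are called genes, open circles uncalled genes, black bars list medians and the dashed line the median of all genes, 0.10. List medians run from -0.54 for HSC-associated genes to 0.48 for mitosis genes, and the uncalled members lie between -1.32 and 1.14.

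Array medians over all probe sets were 5.41 to 5.54 in the series. Interquartile ranges were 2.83 to 2.87 on the Erg +/- HSC arrays and 2.50 to 2.64 on the Erg -/- MPP arrays. Among these 6 arrays the width of the values thus moved with the population. In Erg fl/fl MPPs it was 2.84 for replicate 1, as in HSCs, and 2.53 and 2.58 for replicates 2 and 3. Its part in the differences was not tested. With quantile normalization applied again, the same 12 genes were called, which the gap in p largely fixes. Replicates correlated at r = 0.9587 to 0.9602 within Erg +/- HSCs and at 0.9534 to 0.9606 within Erg -/- MPPs, across the 9984 genes.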

How the data were processed

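Affymetrix gene arrays measured RNA of sorted mouse marrow cells, amplified from 20 ng per sample. The deposited values are log2 RMA values, and the affy package is named, per the submitters' processing notes, without a version. RMA gives arrays a common distribution, so values are relative to the array as a whole and differences of dim genes are understated. The sources used here do not state whether all arrays entered 1 normalisation. The value table analysed here held 18719 probe sets, of which 10657 had 1 symbol, 523 had several and 7539 were unnamed. Whether the deposited table holds further probe sets was not checked. Each gene took its probe set with the highest mean, which gave 9984 genes, 364 of them with several probe sets. Of their gene IDs 9933 matched RefSeq (GRCm38.p6).

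limma 3.58.1 in R 4.3.3 fitted 4 group means over 12 arrays (8 residual and 4.35 prior degrees of freedom), two-sided, with no filter on dim genes, and adjusted p by Benjamini-Hochberg with a threshold of 0.05. The fit was tested on simulated normal noise with some genes changed, which checks the code and does not bear on the gap in p. Arrays carry no read depth, and 3 per group limit the precision. A fold is 2 raised to the log2 difference.

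The members and the 28 gene lists (505 of 1236 genes measured) were chosen with earlier results of these data known. Named genes were, per direction, up to 15 called genes by size whose groups do not overlap, up to 8 called in both contrasts, up to 5 called in controls alone, the called genes or 5 smallest p of the difference of the contrasts, and up to 4 called members of each list, or 2 by p. The rule leaves out small RNAs, sensory receptors, clones and predicted genes. Other list members, Tgfbr2, Smad4, Pecam1, Kdr, Itga2b, Gp5, Oas1a, Ifit3, Rsad2, Ifi27l2a, P2rx1, Klf1, Slc4a1, Itgav, Alcam, Blnk, Ebf1, Cebpa, Cks2, Ets1, Epor and Il1r1, and the uncalled Slc25a17, were named after their values were seen. Alternatives were a replicate block, a fit of 6 arrays, filters at the 25th and 50th percentile, probe-set means, a repeated quantile normalization, median centring, trend and robust moderation, array weights, all probe sets, no moderation, at least 2-fold, and each array left out. Leaving out the lowest-weight array of each population was chosen after seeing the data.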

Additional observations from a re-analysis of the deposited data

Results flagged for a closer look

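By the test of the interaction, the population difference in the rows of this table differed between reduced Erg and controls for 2 genes. The gap in p lies in the reduced-Erg contrast, which is a part of this test, so these calls describe the rows. Mx1-Cre also differs and cannot be told apart from reduced Erg. For Igll1 the difference of MPPs minus HSCs was 2.39 in controls and 0.36 with reduced Erg, a change of -2.03 (adjusted p = 0.0157). The lower level was in Erg -/- MPPs, at 5.95 to 6.11 against 7.77 to 8.04 in Erg fl/fl MPPs, while the HSC groups overlapped. For Ifitm1 the difference was -1.08 in controls and -2.84 with reduced Erg, a change of -1.75 (adjusted p = 0.0157), and here too the Erg -/- MPPs were lower, at 9.27 to 9.63 against 10.98 to 11.17. Each call was lost in 9 alternatives, 7 of them single arrays left out, with adjusted p up to 0.0771 for Igll1 and 0.0922 for Ifitm1, while the direction stayed.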

How the results depend on the processing

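The 12 genes called between Erg -/- MPPs and Erg +/- HSCs were called again under all 25 alternatives, in the same direction. Their p was 1.74e-09 or less in the main limma fit, and the next gene had 0.0336. With no gene near the threshold, this outcome was largely fixed by the rows and is no measure of robustness. The gap in p limits every count, since the analysed table holds 0 probe sets in this comparison between the p-values of 1.86e-08 and 0.0537 from limma. Genes higher in MPPs numbered 2 with the 6 arrays alone and without the lowest-weight array of each population, and 1 to 2 with single arrays left out (2 without Erg +/+ HSC replicate 1), where a small RNA was added. Lower genes numbered 17 over all probe sets. Control calls numbered 61 with 6 arrays, 60 over all probe sets, 40 without moderation, 61 without the lowest-weight arrays, and 47 to 152 with single arrays left out. The difference of the contrasts gave 4 calls with trend and robust moderation, 1 without the lowest-weight arrays, and 0 to 3 with single arrays left out. With the replicate number as a block, 12 genes were called with reduced Erg, 139 in controls, 12 in both and 0 for the difference of the contrasts. Deviations of arrays with the same number correlated at r = -0.085 to 0.104, so the numbers were not taken to pair samples. The causes were not tested. Of the named genes' other values, 81 control calls and 18 interaction calls were lost and 13 and 6 gained over the alternatives. None was lost or gained with reduced Erg, which the gap largely fixes.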

Other observations

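Over all probe sets, 5 further probe sets with no gene name in the annotation used here were called, all lower in Erg -/- MPPs than in Erg +/- HSCs (limma, adjusted over the 18719 probe sets). Probe set 10582821 had the largest difference, -6.38 (adjusted p = 1.22e-05), from a mean of 11.88 in Erg +/- HSCs to 5.5 in Erg -/- MPPs. Probe sets 10343258 (-4.61), 10515755 (-4.47), 10341786 (-3.94) and 10608718 (-3.17) followed. Their control differences were -5.59 for 10582821, -5.09 for 10343258, -3.56 for 10515755, -3.57 for 10341786 and -2.70 for 10608718, each called. Of the 5, 10343258 had the larger difference in controls.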
